A study of Homo sapiens with 9 samples.

Results

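EGR1 sites on chromosome 19 were taken from the 2 deposited peak lists of an EGR1 ChIP-seq experiment in BJ-hTert-B-RAF-V600E cells, immortalised fibroblasts of human origin that make the B-RAF V600E oncoprotein when doxycycline is added. Every listed peak on that chromosome was a member: 1064 of the 16285 peaks gained on induction and 746 of the 12340 peaks gained on induction in the presence of clobetasol, which makes 1810 of 28625 listed peaks in all. The 9 libraries fell into 3 groups of 3, all from this engineered line and all immunoprecipitated with the same EGR1 antibody. Proliferating cells were given ethanol in place of doxycycline, with DMSO. Induced cells were given doxycycline at 1000 ng/mL with DMSO. The last group was given the same dose of doxycycline with clobetasol, a glucocorticoid, at 2 nM. Treatments lasted 24 h. Titles name DMSO for the clobetasol group as well and its treatment label does not, so it is uncertain if that group had DMSO. Whether the 3 libraries of each group are from separate cultures, and whether the line is a single clone, the labels do not state.

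EGR1 is an immediate early transcription factor that is induced by the RAF, MEK and ERK kinase cascade. It binds GC-rich DNA through its own zinc fingers, mostly at promoters and other CpG-rich regulatory sequence. Chromosome 19 is the most gene-dense human chromosome and is rich in GC and in CpG islands. It also carries the largest clusters of KRAB zinc finger genes, a family of repressors that arose by tandem duplication and that silence transposable elements, and parts of these clusters lie in a repressive form of chromatin. Large arrays of satellite repeats flank its centromere.

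Each list compared the pool of 3 treated libraries with the pool of 3 proliferating libraries, so a listed site is one with more signal in treated than in proliferating cells. No value has a spread over replicates. Fold, the authors' value, divides the treated pileup at the summit by a level of the proliferating pool scaled to the treated pool, called the control level here. That level need not be the pool's own count at the summit, since at some sites it was not a whole number of fragments. Fold and −log10 p together gave the number of fragments at each summit. The clobetasol pool was 1.21 times as deep as the induced pool, and the pileup ratios below divide by that depth ratio. The median chromosome 19 summit held 66 fragments in the induced list (interquartile range 45.75 to 107) and 79 in the clobetasol list (55 to 124), against 64 and 75 over all chromosomes. Values over all chromosomes are those of the whole lists, contigs included. Of their peaks, 16090 induced and 12191 clobetasol peaks lay on chromosomes 1 to 22 and X. High-control sites are those whose control level exceeded 5 times their list's lowest. They made up 16.9% of the induced and 22.9% of the clobetasol sites on chromosome 19 (17.9% and 22% over all chromosomes, 17.4% and 21.5% over chromosomes 1 to 22 and X). No genome or annotation of hg19, the build of the lists, was used here, so sites are named by position and no sequence is shown.

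Chromosome 19 held the most sites per unit length of the 22 autosomes. It carried 17.99 induced sites per Mb of its full hg19 length, against 11.9 on chromosome 17, the next densest, a median of 4.98 over the other 21 autosomes and 2.65 on chromosome 13, the sparsest. The clobetasol list gave 12.6 per Mb against 8.78 on chromosome 17. The chromosome made up 1.95% of the length of chromosomes 1 to 22 and X and held 6.53% of all induced and 6.05% of all clobetasol sites. Since 1 control pool served for both lists, their similar order of chromosomes is not a pair of independent observations.

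The order changed when sites were counted per gene. RefSeq on GRCh38.p14 lists 1451 protein-coding genes on chromosome 19, which is 24.5 per Mb of hg19 length against 14.4 on chromosome 17. Per 100 protein-coding genes, chromosome 19 held 73.3 induced sites, the 20th highest value of the 22 autosomes, where the others ran from 68.1 on chromosome 6 to 98.0 on chromosome 2. All autosomes together held 82.3. In the clobetasol list it held 51.4 per 100 genes, the 21st highest, with 51.1 on chromosome 11 as the only lower value. Of its protein-coding genes, 260 (17.9%) carried zinc finger family symbols (ZNF, ZSCAN, ZKSCAN, ZFP or ZIM with a number), 46.6% of the 558 such genes in the table. With that family left out of the gene count of every autosome, chromosome 19 held 89.3 induced sites per 100 genes. It then ranked 10th of 22, near the median of the others (87.2). Sites at zinc finger genes stayed in the site counts. The family made up at most 4.16% of genes on any other autosome (chromosome 7), so leaving it out raised chromosome 19 the most. High density per Mb thus went with a site number per gene that was among the lowest. It was mid-range only once zinc finger genes, but not their sites, were left out. No test was made of this order, since chromosomes are not replicates.

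**Figure D1:**
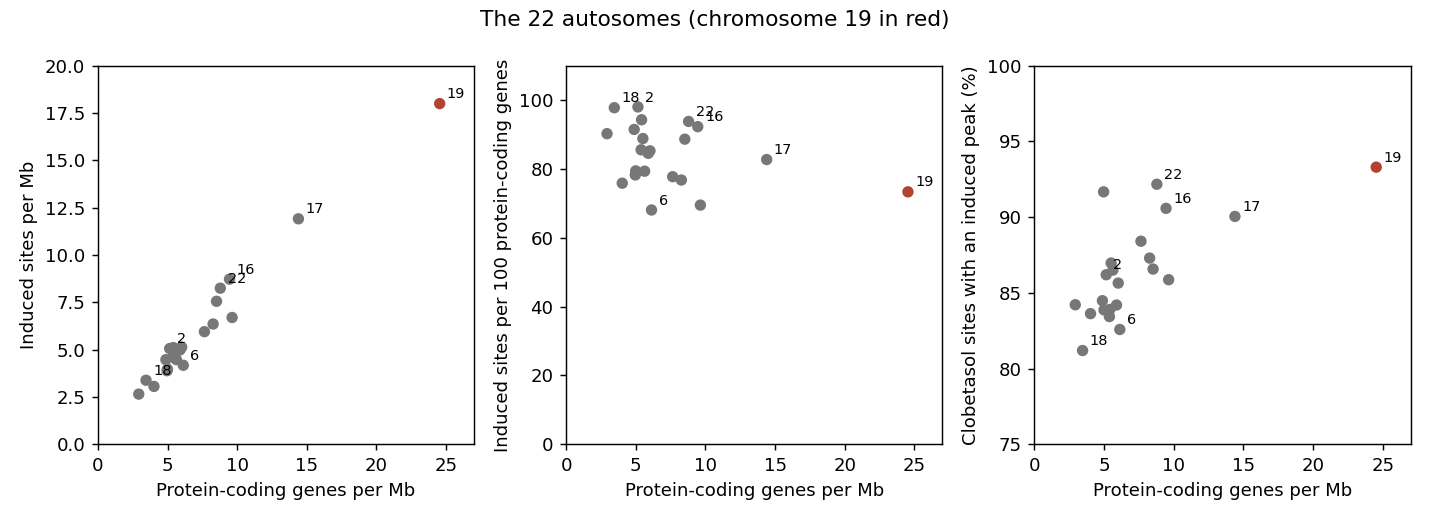
Each point is 1 of the 22 autosomes, with protein-coding genes per Mb on the x axis of all 3 panels and, on the y axes, induced sites per Mb, induced sites per 100 protein-coding genes and the percentage of clobetasol sites with an overlapping induced peak (this axis starts at 75%). Chromosome 19, in red, is at the top of the left and right panels (17.99 per Mb and 93.3%) and near the bottom of the middle panel (73.3 per 100 genes).

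Sites were spread unevenly along the chromosome. In 60 bins of 1 Mb, counted from the tip of the short arm and with the last bin only partly filled, the median bin held 17.5 induced and 12 clobetasol sites. The arms were taken as the chromosome on each side of the longest stretch without peaks, which was left out of their lengths (24.2 and 31.4 Mb). The short arm was the denser, with 568 induced sites (23.5 per Mb) against 496 on the long arm (15.8 per Mb). The clobetasol list had 398 and 348 sites, or 16.4 and 11.1 per Mb. Folds were alike on both arms, with induced medians of 3.70 and 3.57. The densest induced bins were those from 1 to 2 Mb and from 18 to 19 Mb with 51 sites each, from 10 to 11 Mb with 45, from 0 to 1 Mb with 38, and from 2 to 3 and 3 to 4 Mb with 37 each. The densest clobetasol bins were from 1 to 2 Mb with 36, 18 to 19 Mb with 35, 2 to 3 Mb with 31, 10 to 11 Mb with 28 and 13 to 14 Mb with 27. The 11 bins with 30 or more induced sites held 40.04% of the members in 18.3% of the bins, and 8 of the 11 lay on the short arm. Induced sites outnumbered clobetasol sites in 50 bins, the lists were equal in 4 bins that held sites, and clobetasol sites were the more numerous in 3 bins, by 1 site each.

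**Figure D2:**
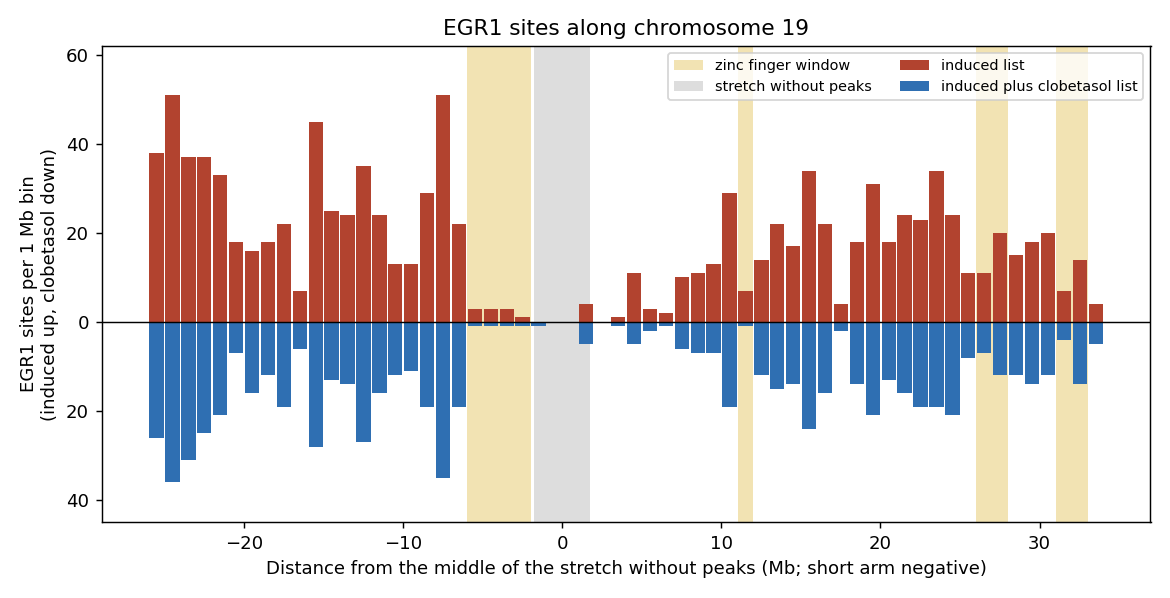
Bars give the number of sites in each 1 Mb bin, induced list upward and clobetasol list downward, against distance in Mb from the middle of the longest stretch without peaks (grey), with zinc finger windows shaded yellow. The short arm rises to 51 induced sites in a bin, and bins partly in or next to the grey stretch hold 0 to 4 induced sites.

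The longest stretch of the chromosome without a peak in either list ran from 24216337 to 27732027, 3.52 Mb around the centromere. It takes in all of the bins from 25 to 27 Mb. Of the bins it touches or that flank it, that from 23 to 24 Mb held 1 site of each list, that from 24 to 25 Mb held 1 clobetasol site only, that from 27 to 28 Mb held 4 induced and 5 clobetasol sites, and that from 28 to 29 Mb held none. Reads cannot be placed in gaps of an assembly, and where these lie in hg19 was not looked up here. Within 5 Mb of the stretch, the short arm side held 25 induced and 18 clobetasol sites (5.00 and 3.60 per Mb) and the long arm side 19 and 13 (3.80 and 2.60 per Mb). On the short arm side, only 2 sites of each list lay within 2 Mb. The induced site at 22288950 to 22289179 (fold 3.68, 36 fragments) had no clobetasol peak, the site at 23299620 to 23299893 was in both lists (folds 4.24 and 4.32), and the site at 24216050 to 24216336 was listed only with clobetasol (fold 3.55, 36 fragments).

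On the long arm side, 4 peaks stood within 8 kb of the edge of the stretch, and their pileups were of another order from the rest of the chromosome. At 27732028 to 27732731 the induced pool held 15534 fragments, with a control level 1836 times the lowest of the list and a fold of 1.30. At 27733081 to 27733416 there were 6137 fragments, at 27737195 to 27737680 there were 3308 and at 27739265 to 27739764 there were 1465, with folds of 1.17, 1.58 and 1.65. All of these were also in the clobetasol list, with folds of 1.16, 1.14, 1.53 and 1.66. Their −log10 q (214, 29.0, 125 and 65.6 in the induced list) thus came with small folds over very high control levels. The part of repeat copies in these levels was not tested, since no repeat annotation was used. Further out, the site at 29252274 to 29252499 was in both lists (folds 2.56 and 2.72), and that at 27906260 to 27906557 only in the clobetasol list (fold 1.94, 96 fragments).

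Zinc finger gene clusters were approximated by whole-Mb windows at 20 to 24, 37 to 38, 52 to 54 and 57 to 59 Mb, set from general knowledge and not from an annotation, so their borders are not exact and other genes lie in them. Together the 9 Mb held 69 induced sites, 7.67 per Mb, against 21.3 per Mb over the rest of the chromosome outside the stretch without peaks. The clobetasol list gave 42 sites, 4.67 per Mb, against 15.1. With a wider set of windows (9 to 10, 11 to 13, 20 to 25, 35 to 39, 44 to 45, 52 to 55 and 56 to 59 Mb), which takes in more of the neighbouring genes, density was 12.3 induced sites per Mb.

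The windows differed among themselves. The window at 20 to 24 Mb, next to the centromere, held 10 induced sites in 4 Mb (2.5 per Mb) and 4 clobetasol sites, although the bins from 18 to 20 Mb just outside it held 51 and 22 induced sites. Its strongest site, at 21205863 to 21206239, had 121 fragments and a fold of 5.56, and 147 fragments and a fold of 5.45 with clobetasol, a depth-scaled ratio of 1.00 (exact 95% interval 0.781 to 1.28). The other 9 induced sites there had folds of 2.41 to 4.24. The window at 37 to 38 Mb held 7 induced sites and 1 clobetasol site. Its strongest induced site, at 37960121 to 37960390, had 107 fragments and a fold of 3.51 and no clobetasol peak, and the only shared site was that at 37341642 to 37342021, with folds of 3.31 and 2.79. The windows at 52 to 54 and 57 to 59 Mb were closer to the rest of the chromosome, with 31 induced sites (15.5 per Mb) and 21 (10.5 per Mb), of which 19 and 16 had a clobetasol peak. Pooled over the windows, the median fold was 3.51 (interquartile range 3.02 to 4.16) against 3.64 (3.13 to 4.40) in the rest of the chromosome. The median summit held 59 against 66 fragments, and the median −log10 q was 13.5 against 15.5. By window, in the order above, median folds were 3.34, 3.18, 3.61 and 3.80, with 47.5, 54, 58 and 67 fragments.

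Promoter sequences of RefSeq on GRCh38.p14, 250 bases before to 50 after a gene's start, were searched for the EGR1 core motif GCGNGGGCG on both strands, as a description of the chromosome with no link to single peaks. On chromosome 19, 179 of 1548 promoters of 1185 protein-coding genes held it (11.6%, 95% Wilson interval 10.1 to 13.3), against 12.2% of all 22132 promoters searched. Among promoters of its zinc finger genes 18 of 283 did (6.36%, 4.06 to 9.83), and among those of its other genes 161 of 1265 (12.7%, 11.003 to 14.7). Zinc finger genes on the other chromosomes were at 12.7% (9.56 to 16.8, 330 promoters). Median GC content was 60.3% in the promoters of chromosome 19 zinc finger genes and 64.3% in those of its other genes. Promoters of one gene or of duplicated genes share sequence, so these intervals cover counting error only.

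The largest induced folds were near the tip of the short arm. Outside high-control sites, the 5 largest all lay in the first 4 Mb. The site at 3132716 to 3133649 had a fold of 9.19, with 145 fragments over a control level of 14.9. That at 2474574 to 2475497 had a fold of 8.87 with 228 fragments, and the highest −log10 q outside high-control sites (128). The site at 2168093 to 2168588 had a fold of 8.47 (143 fragments), that at 3093937 to 3094422 one of 8.34 (104 fragments) and that at 1295691 to 1296149 one of 8.20 (66 fragments over a control level of 7.17, only 1.11 times the lowest). This stretch, with a bound chosen after these values were seen, held 14.8% of the 884 induced sites that were not high-control. Among these it held all 5 of the 5 largest folds, 5 of the 10 largest, 10 of the 20 largest and 11 of the 50 largest.

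The other sites among the 10 of highest −log10 q in the induced list had folds of 6.01 to 6.72. On the short arm they lay at 2050508 to 2051486 (170 fragments), 13972475 to 13973265 (157), 17580820 to 17581614 (158), 17791016 to 17791393 (164) and 18682345 to 18682769 (152). On the long arm they lay at 45959099 to 45959786 (188 fragments) and 56166116 to 56167080 (154). Some high-control sites held more fragments at high folds. Among them were those at 13273799 to 13274239 (428 fragments, fold 7.95) and at 48825101 to 48825528 (460 fragments, fold 6.98). These were picked for a high −log10 q, and other high-control sites had small folds. All 6 induced sites with a fold under 2 were high-control, and the smallest fold outside high-control sites was 2.24. Over the chromosome, fold exceeded 5 at 129 induced sites (12.1%, against 13.1% over all chromosomes) and at 23 clobetasol sites (3.08%, against 3.79%).

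With clobetasol, the median fold on chromosome 19 was 3.11 (interquartile range 2.72 to 3.62), and 3.16 over all chromosomes. The site at 2168243 to 2168577 headed the list outside high-control sites both by −log10 q (87.0) and by fold (8.38, 161 fragments), and it had nearly the same fold without clobetasol (8.47). The next by −log10 q were at 2474586 to 2475523 (fold 5.61, 185 fragments), 45959113 to 45959748 (fold 5.22, 186 fragments), 36394522 to 36394969 (fold 4.79, 193 fragments) and 45999987 to 46000512 (fold 5.10, 175 fragments). The site at 36394522 had a control level 4.996 times the lowest, just under the bound for high-control sites. The 5 remaining, at 21205850, 10982595, 18699686, 50143080 and 19174164, had 128 to 155 fragments. High-control sites again held more fragments: 525 at 47538762 to 47539237 (fold 6.51), 401 at 48825098 to 48825530 (fold 5.02) and 395 at 2475760 to 2476158 (fold 5.25), the last of which stood next to the site at 2474586. All 10 sites named by −log10 q in each list had a peak in the other list.

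Of the 1064 induced sites, 685 had a clobetasol peak that overlapped by at least 1 bp, 64.4% (95% Wilson interval 61.5 to 67.2), and the share over all chromosomes was 64.0%. Of the 746 clobetasol sites, 696 had an induced peak, 93.3% (91.3 to 94.9), and the share over all chromosomes was 86.4%. So the share of induced sites found again with clobetasol was near the background, and the share of clobetasol sites that were also induced sites was the highest of the 22 autosomes. The other autosomes ran from 81.2% on chromosome 18 to 92.2% on chromosome 22, with a median of 85.9%. Intervals on chromosomes 22 (88.4 to 94.8), 21 (85.7 to 95.3), 16 (87.9 to 92.7) and 17 (87.6 to 92.0) overlapped that of chromosome 19. Interval and rank describe these lists, which share their control, and no test of the difference was made. Among stronger sites other chromosomes came close to its share or reached it. At a −log10 q of 10 or more, 98.0% of 505 clobetasol sites on chromosome 19 had an induced peak, against 93.3% of 8271 over all chromosomes, and at 20 or more all 248 on chromosome 19 did, against 97.5% of 3991. Chromosome 22 was at 97.9% at the lower of these bounds, and all 96 such sites of chromosome 20 had an induced peak at the higher one. Arms were alike in both shares, with 64.3% and 64.5% of induced sites and 93.7% and 92.8% of clobetasol sites.

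The 379 induced sites without a clobetasol peak were weak ones for the most part. Their median fold was 3.28 against 3.92 for sites found again. Their median summit held 45 against 86 fragments, and 63.9% had a −log10 q under 10, against 11.8%. The same held over all chromosomes, with folds of 3.335 against 3.91, 44 against 86 fragments, and 63.1% against 14.2%. The deposited lists end at a −log10 q of 5, and the weakest chromosome 19 members, at 676344 to 676714 in the induced list and at 44079672 to 44080106 in the clobetasol list, stood at 5.01 and 5.02. A site without a peak may therefore lie just under the limit of the other list. Among the 409 induced sites at a −log10 q of 20 or more, 94.9% had a clobetasol peak (94.5% over all chromosomes), which leaves 21. The strongest of these outside high-control sites were at 47744398 to 47744789 (fold 6.37, 71 fragments), 13875208 to 13875483 (fold 3.90, 117 fragments), 17832526 to 17833176 (fold 4.46, 97 fragments), 958828 to 959197 (fold 4.46, 92 fragments) and 30169459 to 30169869 (fold 6.64, 60 fragments).

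The 50 clobetasol sites without an induced peak were few, weak and scattered. They lay in 35 bins with at most 3 in any bin, 3 were high-control sites, and none had a fold over 3.93. A −log10 q under 10 was seen at 40 of them (80%, beside 67.0% of such sites over all chromosomes). The strongest outside high-control sites were at 42924452 to 42924722 (fold 3.05, 94 fragments), 3336707 to 3337168 (fold 3.55, 74 fragments), 36404604 to 36404906 (fold 3.63, 61 fragments), 49148252 to 49148537 (fold 3.93, 53 fragments) and 9022614 to 9022854 (fold 3.51, 59 fragments).

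The share of induced sites found again varied between bins. Over the 43 bins with 10 or more induced sites it ran from 33.3% to 93.8%, with a median of 63.6%. The lowest was the bin from 5 to 6 Mb, with 6 of 18 sites, and the next the bin from 30 to 31 Mb, with 4 of 11. The highest was the neighbouring bin from 6 to 7 Mb, with 15 of 16. With so few sites per bin, no bin was tested against the others.

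Where a site was in both lists, its pileups could be compared without the shared control, between 1 pool of induced and 1 pool of clobetasol libraries. At the 685 shared chromosome 19 sites, the ratio of the clobetasol to the induced pileup, scaled for depth, had a median of 0.802 (exact 95% interval of the median 0.785 to 0.815) and quartiles of 0.699 and 0.896, against 0.798 over all chromosomes. It was below 1 at 622 sites, 90.8%, against 87.4% over all chromosomes. In the excess over the control level, a quantity added after the data were seen, the median ratio was 0.732, and 0.734 over all chromosomes. The size of the decrease on chromosome 19 was thus close to that of the whole lists. All 43 bins with at least 5 shared sites had medians below 1, from 0.686 in the bin from 7 to 8 Mb to 0.893 in that from 56 to 57 Mb. This rests on the depth ratio: with the pools taken as equally deep the median over the chromosome was 0.975, and the bin medians ran from 0.833 to 1.09, with 32 of the 43 below 1 and 11 above. Medians were 0.786 (0.761 to 0.805) on the short arm, 0.815 (0.799 to 0.830) on the long arm and 0.849 (0.823 to 0.883) at the 40 shared sites of the zinc finger windows, against 0.796 (0.780 to 0.810) in the rest of the chromosome. With all induced sites ranked by fold into 5 classes of equal size, the chromosome 19 median ran from 0.944 in the lowest class through 0.842, 0.811 and 0.764 to 0.698 in the highest, and over all chromosomes from 0.952 to 0.707. A weak induced site is shared only where the clobetasol pool also passed its threshold, which favours high ratios among weak sites. Fold also contains the induced pileup, by which the ratio divides, so counting error alone would give some fall over the classes. The classes therefore cannot tell whether strong sites decreased more. The threshold also bears on the zinc finger windows, where 58.0% of induced sites were shared, against 64.8% in the rest of the chromosome. Their median summit held 59 against 66 fragments, and their difference in ratio was not tested. The intervals cover the spread over sites, which share both pools, and the yield of the immunoprecipitations was not measured.

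**Figure D3:**
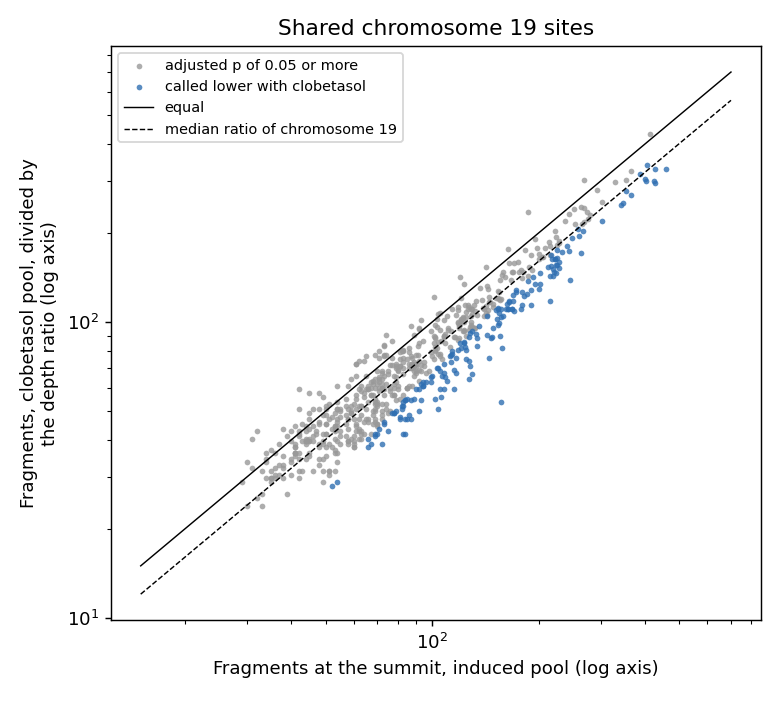
Each point is a shared chromosome 19 site with under 1000 fragments in the induced pool, with fragments at the summit in the induced pool on the x axis and in the clobetasol pool, divided by the depth ratio, on the y axis (both log axes). The solid line marks equality and the dashed line the median ratio of 0.802, and most points, including all 172 called lower here in blue, lie below the solid line.

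An exact binomial test of the 2 pileups, adjusted over all 10429 shared sites by the Benjamini-Hochberg method, called 173 of the 685 chromosome 19 sites lower with clobetasol. That is 25.3%, beside 23.1% over all chromosomes, so the share was near the background. It called 0 higher, beside 0.384% over all chromosomes and 0.291% over chromosomes 1 to 22 and X. Chromosomes 9, 12, 15, 18, 20, 21 and 22 also had 0 called higher. At an unadjusted p under 0.05, 264 of the 685 were lower and 1 (0.146%) higher. Over all chromosomes, 3802 of the 10429 were lower and 72 (0.690%) higher. Sites called lower lay in 45 bins, 109 on the short arm (29.9% of its shared sites) and 64 on the long arm (20.0%), and the difference between the arms was not tested. Called sites were deep ones, with a median of 136 fragments in the induced pool and none under 52, since only deep sites have the precision for a call. Taking the pools as equally deep left 8 sites lower and 7 higher on chromosome 19, so the calls rest on the depth ratio. Of the 173, 95 were high-control in neither list. A match and test made anew without the high-control sites of both lists, on 511 shared sites, called 79 lower. These alternative settings were counted on chromosome 19 only. Among shared sites not high-control in the induced list, the first test called 96 of 514 lower (18.7%), beside 18.3% of 7795 over all chromosomes.

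**Figure D4:**
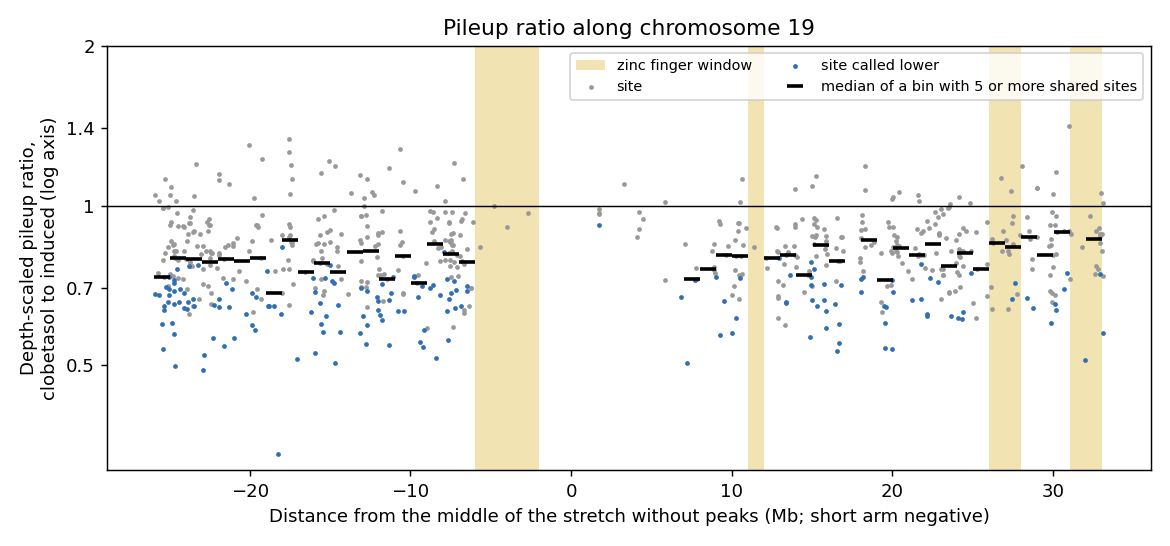
Points are shared chromosome 19 sites, with distance in Mb from the middle of the stretch without peaks on the x axis and the depth-scaled pileup ratio, clobetasol to induced, on the y axis (log axis), and blue points were called lower. Black dashes, the medians of bins with 5 or more shared sites, lie between 0.686 and 0.893 on both arms.

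The sites called lower with the smallest ratios, outside high-control sites, included 1 of the 5 sites of largest fold. At 3093937 to 3094422, the induced pool held 104 and the clobetasol pool 62 fragments, which gave 0.491 as the ratio (0.352 to 0.678 as its exact 95% interval, adjusted p = 0.000326 by the exact binomial test). Folds there were 8.34 and 4.59. The ratio was 0.500 (0.346 to 0.716) at 1354476 to 1355192, 0.506 (0.376 to 0.675) at 11308089 to 11308672, 0.506 (0.350 to 0.725) at 33166024 to 33166799 and 0.513 (0.384 to 0.682) at 57946512 to 57946825. Of the 5 sites of largest induced fold, 4 were called lower. The exception was the site at 2168093 to 2168588, where 143 and 161 fragments gave 0.927 (0.735 to 1.17), with an adjusted p = 0.675 in the exact binomial test.

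How sites were picked bore on these ratios. Of the 10 sites of highest −log10 q in the induced list outside high-control sites, 8 were called lower, with ratios of 0.516 to 0.927 over the 10. Of the 10 picked in the same way in the clobetasol list, 1 was called lower, with ratios of 0.668 to 1.21. A site picked for a high value in 1 pool is more likely to be lower in the other, so neither set by itself gives the size of the decrease.

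Against the median ratio of all shared sites in place of equality, a test of departure from the general decrease, 6 chromosome 19 sites were below it (0.876% of 685, beside 0.921% over all chromosomes) and 9 above it (1.31%, beside 2.42%). Among the 6, the site at 7745529 to 7746414 had the smallest ratio of the chromosome, 0.341 (0.251 to 0.458), but its summits lay 449 bp apart in the 2 lists, so it need not describe 1 site. The others were at 3132716 (ratio 0.522), 4400331 (0.545), 4968652 (0.562), 11308089 (0.506) and 17580820 (0.516), with summits 1 to 20 bp apart. Those at 4400331 and 4968652 were high-control sites in both lists, and that at 7745529 was one in the induced list only.

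Of the 9 above the general decrease, 4 were the peaks with very high pileups at 27.7 Mb, with ratios of 0.918 (0.898 to 0.938), 0.964 (0.932 to 0.998), 0.967 (0.923 to 1.01) and 0.985 (0.918 to 1.06). With folds of 1.17 to 1.65, most of the pileup there was at the control level. The other 5 were at 8428566 to 8429155, 13265115 to 13265370, 18699741 to 18700111, 47538763 to 47539237 and 54041317 to 54041627, with ratios of 1.26, 1.12, 1.21, 1.049 and 1.19. All but that at 18699741 were high-control sites. At 8428566, 187 fragments went to 287, a ratio of 1.26 (1.047 to 1.53), with folds of 4.27 and 5.48. It was the single chromosome 19 site with an unadjusted p under 0.05 in the direction of an increase (adjusted p = 0.0526 by the exact binomial test). The site at 47538763 had 412 and 525 fragments and folds of 6.20 and 6.51.

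Neighbouring sites were close together. The median distance from an induced summit to the next nearest was 9.10 kb on chromosome 19, against 14.2 kb on chromosome 17, 15.3 kb on chromosome 22 and 22.8 kb over chromosomes 1 to 22 and X. A neighbour within 10 kb was found for 52.3% of its induced sites, against 34.6%, and for 46.6% of its clobetasol sites, against 29.1%. Induced peaks were also wide, with a median of 473 bp, the widest of the 22 autosomes, where the others ran from 392 to 452 bp. In all, 108 induced and 22 clobetasol peaks were 1 kb or wider, the widest 2395 bp, and 12 induced peaks overlapped 2 or more clobetasol peaks. In the clobetasol list the median width was 360.5 bp, against 339 bp over all chromosomes. The median gap between the summits of a shared pair was 12 bp, and the gap was at most 100 bp for 94.7%.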

How the data were processed

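EGR1 ChIP-seq was analysed from 2 deposited peak lists. Per the submitters' processing notes, the tools were MACS2 2.1.1.20160309 for peaks, BWA and SAMtools 1.3.1 for alignments on hg19, and bcl2fastq, FastQC 0.11.5 and cutadapt 1.15 for reads. Caller settings were not given in the sources used here. The peak names in the files show that the authors pooled replicates 1, 2 and 3 of each group and used proliferating ChIP libraries as control, without input DNA. The library names in the labels repeat 1 sample name for proliferating replicates 2 and 3, so that pool may not hold 3 distinct samples. The deposited values are a fold (a ratio), −log10 p and −log10 q at the summit, the summit's offset in bp, and a score, equal in each row to 10 times the −log10 q without its decimals. Peak numbers run to 52393 and 26677, so the lists may be filtered, by a step the labels do not record.

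From these, the whole number of fragments whose Poisson tail gave the listed −log10 p at the listed fold (pseudocount 1) was solved for each peak. The recomputed −log10 p was within 0.002 for 99.8% of peaks in each list, and 1 chromosome 19 induced peak without a clobetasol peak was not solved. Many low control levels fell close to whole multiples of 0.552 and 0.670, and others fell between them. The multiples were refined on the close levels only, and the ratio of these multiples, 1.21, was taken as the relative depth. At 388 shared sites with the same summit and a control level above the lowest, control levels had a median ratio of 1.21. The multiples were read from control levels of these lists, which scale 1 proliferating pool. That value is therefore no independent check of the depth ratio. The solver and the binomial test were run on simulated data that followed their own assumptions. The solver's test values were made from its own solutions, so that check could not show errors of the model. The simulated counts had no peak threshold and no spread between libraries. Densities of chromosomes use full hg19 lengths, entered from general knowledge, and those of arms leave out the stretch without peaks. The named sites, by position counted from 1, were the 10 highest −log10 q, the 5 largest folds and the 5 highest −log10 q without a peak in the other list, all outside high-control sites, the 3 highest high-control sites, the 5 lowest called ratios, and all sites within 2 Mb of the centromeric stretch. Each such rule was applied per list. The members, windows and rules were chosen with earlier results of these data known. Python 3.11.15, numpy 2.4.6, scipy 1.17.1 and pandas 2.3.3 were used. The alternatives were a stricter −log10 q, high-control sites left out, other overlap rules, equal list lengths, equal depths, another null, wider windows, narrower flanks and shifted bins. Intervals of shares are 95% Wilson intervals and cover counting error only.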

Additional observations from a re-analysis of the deposited data

How the results depend on the processing

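Of 37 alternative values over 10 results, 16 moved past a bound: the 95% interval of a share or median, or 1.5 times a count or density. The bound for densities is wide, and a −log10 q of 10 or more brought 17.99 induced sites per Mb to 12.5, 12.6 clobetasol sites per Mb to 8.54 and 7.67 per Mb in the windows to 5.33. Leaving out high-control sites gave 57.8% of induced sites with a clobetasol peak, 90.1% in the other direction, and 79 sites called lower in a new test of 511 shared sites. Summits at most 100 bp apart gave 61.4% and 87.5%, and an induced list cut to the length of the clobetasol list 77.1% and 85.5%. Taking the pools as equally deep gave a median ratio of 0.975, with 8 sites lower and 7 higher, and the excess over control, added after seeing the data, a median ratio of 0.732. Testing against the median ratio gave 6 lower and 9 higher. With both lists limited to a −log10 q of 10 or more, 1 site was called higher. The wider windows gave 12.3 sites per Mb, and 2 Mb flanks 1.75 sites per Mb in place of 4.40. Bins shifted by 0.5 Mb took the densest from 51 sites to 63, at 0.5 to 1.5 Mb. No paired analysis was possible because the lists hold 1 pool per group and no value per replicate, and for the same reason no replicate could be left out. At the median depth of 66 fragments per summit, single sites have wide intervals, and only the deeper ones could pass the test.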
